A study of Mus musculus with 3 samples.

Results

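Mouse chromosome 11 is described here from DamID profiles of the nuclear lamina, as every GATC fragment and every listed lamina-associated domain (LAD) that the deposited files place on it. It held 295448 of the 6415372 fragments of each profile. The list labelled Dam-Lamin A had 82 of its 2159 LADs on it, and the list labelled Dam-Lap2b had 91 of 2374. It was chosen by its listed share, the smallest of the 19 autosomes in both lists, so the choice rests on these same lists. Values of the lists and profiles below are therefore a description, without a test, set beside the 18 other autosomes.

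Wild type C57BL/6 mouse embryonic fibroblasts carried a retroviral cassette for 1 of 3 proteins: Dam joined to Lamin A, Dam joined to Lap2b, or Dam alone. There was 1 sample per group, so no value has a replicate check. Profile and list were used for both fusions, and no file of the Dam Only sample was used here. Dam is a bacterial enzyme that methylates adenine in GATC, and a fusion to a lamina protein leaves that mark on chromatin that comes near the nuclear edge. The labels do not say whether the cells were 1 culture or several.

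The lamina is a protein mesh under the inner nuclear membrane. Lamin A is one of its filament proteins, and Lap2b is a membrane protein that binds lamins. Chromatin at the lamina is, in general, poor in genes and weakly transcribed, and chromatin rich in active genes lies mostly in the interior. Mouse chromosomes carry the centromere at the end where numbering starts, so below, the proximal side of chromosome 11 is the part before the middle of its span, and the distal side the part after it.

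Each value is a log2 ratio per fragment, above 0 where the fusion marked a fragment more than the reference did, on the authors' scale. The values have the form of read ratios to a single reference, presumed to be Dam Only, and whole reads could be recovered from them. On chromosome 11 the median fragment had 10 recovered Dam-Lamin A reads, 9 Dam-Lap2b reads and 10 reference reads, each a lower bound. Fragments were therefore averaged in bins of 10 kb with at least 5 fragments (11876 bins) and in bins of 1 Mb (119 bins). Both profiles share the reference, which alone makes them move together. Before the results it must be said that profiles and lists went together crosswise: on chromosome 11, as on 17 of the other autosomes, each profile was higher where only the list of the other label had a LAD. Whether labels of the lists or of the profiles were exchanged cannot be told from the files. Everything is named by its label, and a statement on a list and the profile of the same label, or on a difference between the lists, depends on those labels.

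The gene content, which took no part in the choice, was counted from RefSeq for the assembly GRCm38.p6. The files use mm9 coordinates, so genes were counted per chromosome and were not placed on the profiles. Chromosome 11 had 1609 protein-coding genes, or 13.5 per Mb of the span of its fragments. Only chromosome 7, with 13.6 per Mb, was denser, and the median of the 18 other autosomes was 7.80 per Mb. Without olfactory receptor genes, of which chromosome 11 had 83, its density of 12.8 per Mb was the highest of the 19 autosomes, and chromosome 7 followed with 12.0. The label of a gene-dense chromosome thus held in the gene table. Its genes were short, with a median of 14.3 kb against 18.1 kb for the median of the other autosomes.

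Those genes range from ones used in every cell to tight clusters used in few tissues. In the RefSeq order from the centromere, Ikzf1, a lymphoid transcription factor, and Egfr, a growth factor receptor, come early. The cluster of the cytokine genes Il4, Il13, Il5, Csf2 and Il3 lies within places 352 to 364 of the 1609 genes. The 6 skeletal muscle myosin genes Myh3, Myh2, Myh1, Myh4, Myh8 and Myh13 stand at places 539 to 544 without another protein-coding gene among them. Trp53, the p53 tumour suppressor, and Polr2a, the large subunit of RNA polymerase II, lie further on. The chemokine genes from Ccl2 to Ccl4 lie within places 872 to 907, the 10 Hoxb genes of body patterning places 1050 to 1059, and 27 keratin genes lie within places 1138 to 1202. Col1a1, which encodes a chain of type I collagen and is highly used by fibroblasts, and Actg1, which encodes cytoplasmic gamma actin, are also on this chromosome. Which of these genes lie inside a LAD was not analysed here.

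Fragments were among the longest, with a median of 267 bp on chromosome 11, the second highest of the 19 autosomes, against 248 to 268 bp on the others. There were 2.49 fragments per kb, against 2.40 to 2.52. Promoters of 300 bases (250 before and 50 after the gene start, RefSeq, GRCm38.p6) had a mean GC content of 55.9% on chromosome 11, above the 52.3 to 55.6% of 17 other autosomes with promoters in the table. GATC, which reads the same on both strands, was found in 47.4% of its 2289 promoters and in 48.0% of all 32851. GATC is the site that Dam needs.

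The listed share was 37.0% by the Dam-Lamin A list and 38.8% by the Dam-Lap2b list. Chromosome 19 was next with 43.5% and 39.6%, and chromosome 13 had 48.2% and 40.4%. The median of the 18 other autosomes was 52.1% and 49.6%, and chromosome 14 was highest with 61.6% and 58.7%. In the Dam-Lamin A list chromosome 11 lay well below its nearest neighbour, while in the Dam-Lap2b list it was separated from chromosome 19 by under 1 percentage point. Gene density and listed share went in opposite directions over the 19 autosomes, with a Pearson's r of −0.70 for the Dam-Lamin A list and −0.58 for the other (Spearman's rho −0.66 and −0.64). Without chromosome 11 r was −0.58 and −0.47 over 18 autosomes. These are descriptions over chromosomes of the same libraries. Chromosome 7, of almost equal gene density, had 50.5% and 50.1% of its length listed.

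**Figure D1:**
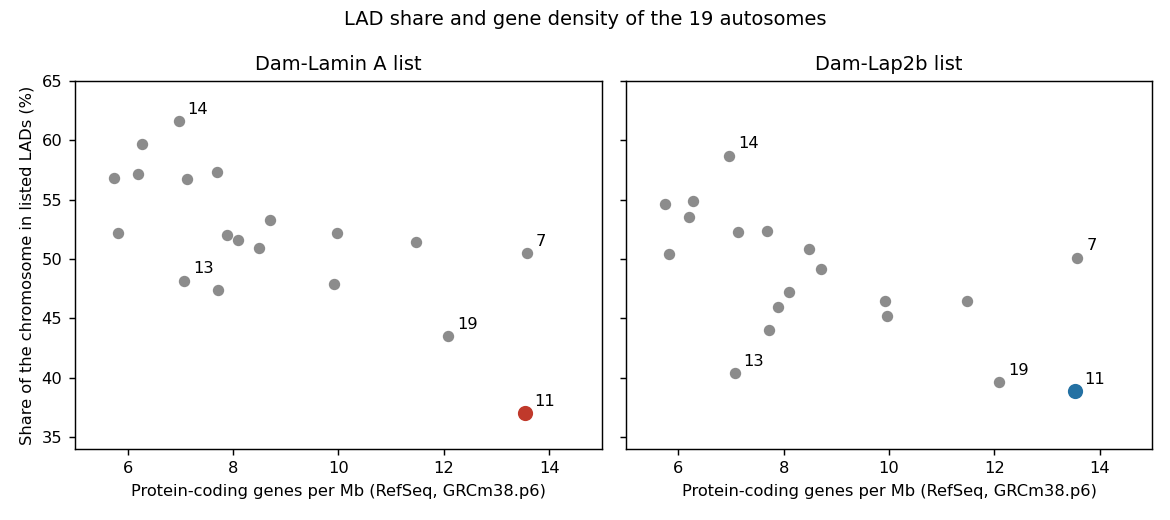
Share of each autosome in listed LADs (vertical axis, %) against its protein-coding genes per Mb (horizontal axis), with the Dam-Lamin A list on the left and the Dam-Lap2b list on the right. Each point is 1 of 19 autosomes, and chromosome 11 is coloured. Chromosome 11 lies at the lower right with 37.0% and 38.8%, and chromosome 7, at nearly the same gene density, lies at 50.5% and 50.1%.

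Seen in bins of 1 Mb, chromosome 11 alternated between high and low stretches in both profiles, which ran from 1 bin to 14 bins in a row. Both profiles were above 0 in 50 of the 119 bins and below 0 in 65, and they had opposite signs in 4. By profile, 53 bins (44.5%) were above 0 with Dam-Lamin A and 51 (42.9%) with Dam-Lap2b, where 58.1% and 62.0% of all 1 Mb bins of the genome were. The rule of choice used this contrast, so nothing is read from the gap. Values ran from −1.38 over a median of −0.23 to 1.91 with Dam-Lamin A, and from −1.92 over −0.35 to 1.79 with Dam-Lap2b. By the Dam-Lamin A list, 43 bins (36.1%, other autosomes 20.4%) held no 10 kb bin with its middle in a LAD. By the Dam-Lap2b list, 39 bins were of this kind (32.8%, other autosomes 20.8%).

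The first 4 bins, from the first fragment at 3002122 to 7000000, were low, with means of −1.05 with Dam-Lamin A and −1.33 with Dam-Lap2b. From 9000001 to 20000000, 11 bins in a row were above 0 in both profiles, with means of 0.99 and 1.12. Another 5 bins in a row were above 0 from 24000001 to 29000000 (1.23 and 1.32) and 7 from 36000001 to 43000000 (1.37 and 1.56). From 49000001 onwards low stretches prevailed. The longest was 14 bins in a row below 0, from 94000001 to 108000000, with means of −0.79 with Dam-Lamin A and −1.28 with Dam-Lap2b. It was preceded by 5 high bins from 89000001 to 94000000 (1.42 and 1.09), and the last 7 bins, from 115000001 to 121843411, were low (−0.85 and −1.60).

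**Figure D2:**
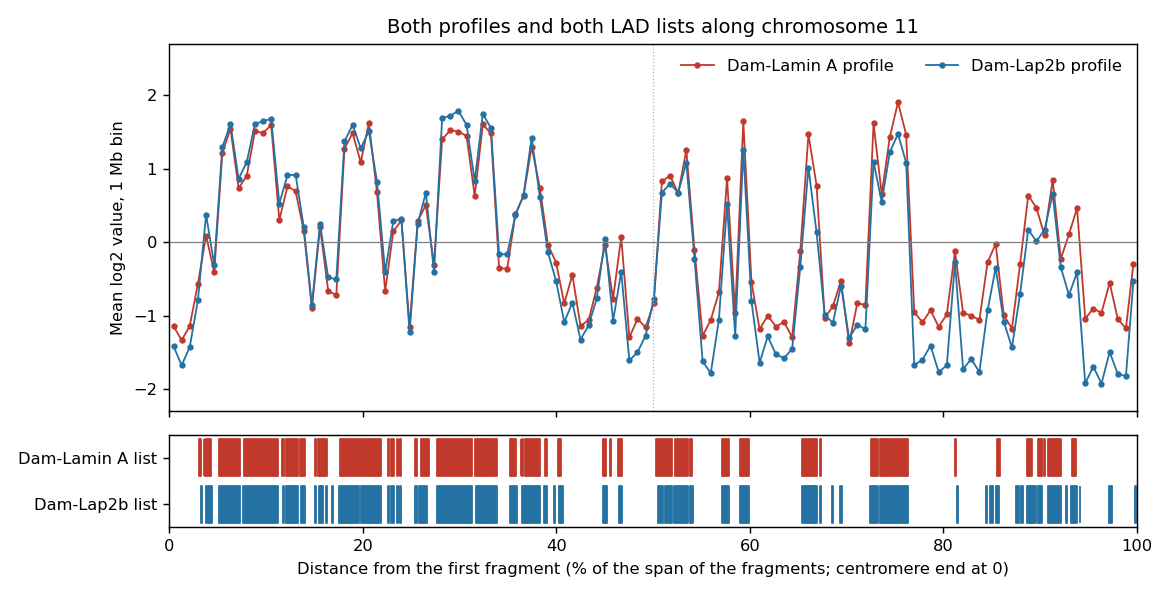
Mean log2 value of the 119 bins of 1 Mb in the Dam-Lamin A profile (red) and the Dam-Lap2b profile (blue), with the LADs of both lists as bars below. The horizontal axis is the distance from the first fragment in % of the span, and the dotted line marks its middle. High blocks crowd the left, on the proximal side, and on the right the blue line runs below the red one.

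The 5 highest 1 Mb bins by the mean of both profiles were all listed to at least 99.0% in both lists. The highest, 92000001 to 93000000, had 1.91 in the Dam-Lamin A profile and 1.48 in the Dam-Lap2b profile. It was the only one of the 5 on the distal side and the only one in which Dam-Lamin A was the higher. The others were 41000001 to 42000000 (1.60 and 1.75), 38000001 to 39000000 (1.51 and 1.79), 15000001 to 16000000 (1.60 and 1.68) and 37000001 to 38000000 (1.52 and 1.73). The 5 lowest bins held no 10 kb bin with its middle in a LAD. They started at 4000001 (−1.34 and −1.68), 120000001 (−1.17 and −1.82), 115000001 (−1.04 and −1.92), 97000001 (−1.15 and −1.77) and 59000001 (−1.29 and −1.61). Dam-Lap2b was the lower in all 5.

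By side, the listed share of 10 kb bins was 49.7% on the proximal and 24.4% on the distal side for the Dam-Lamin A list, and 49.1% and 28.7% for the Dam-Lap2b list. Over the genome 54.6% and 50.5% of bins were listed, so the proximal side was nearer to the genome than the distal side. The span was also divided into 10 equal segments, numbered from the centromere. Segments 2 to 4 were listed to between 59.5 and 63.2%, where the same segments of other autosomes had 45.3 to 56.1%. In segment 5 the share was 11.4% and 11.1%, where the other autosomes had 57.6% and 52.1%. Segment 9 held 10.3% in the Dam-Lamin A list and 21.8% in the Dam-Lap2b list.

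In 10 kb bins the Dam-Lamin A profile averaged −0.08 ± 1.28 (SD over bins) and the Dam-Lap2b profile −0.23 ± 1.35. The 18 other autosomes together averaged 0.20 ± 1.33 and 0.29 ± 1.25. Dam-Lap2b was lowest on chromosome 11 among the 19 autosomes, and Dam-Lamin A was the second lowest, after −0.16 on chromosome 19. Centring each profile on its median over autosomal bins, a shift of 0.22 and 0.40, gave −0.30 and −0.63 for chromosome 11. Bins above 0 made up 43.6% of the chromosome with Dam-Lamin A (genome 55.2%) and 42.2% with Dam-Lap2b (genome 59.3%). The bins fell to both sides of 0 rather than near it, since 19.4% and 16.7% of them were within 0.5 of 0, against a median of 19.6% and 20.1% on the other autosomes.

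Levels inside and outside LADs were compared to see whether chromosome 11 had fewer domains or weaker ones. Inside the Dam-Lamin A list, the profiles averaged 1.26 ± 0.72 (Dam-Lamin A) and 1.24 ± 0.59 (Dam-Lap2b). Other autosomes together had 1.17 and 1.25. Inside the Dam-Lap2b list they averaged 1.24 ± 0.69 and 1.14 ± 0.72, where the others had 1.28 and 1.29. LADs of chromosome 11 thus stood close to those elsewhere in 3 of the 4 pairs. The exception was Dam-Lap2b in its own list, the lowest of the 19 autosomes. Outside LADs, Dam-Lamin A averaged −0.86 ± 0.79 outside its own list, against −0.92 on the other autosomes. Dam-Lap2b averaged −1.10 ± 0.84 outside its own list, the lowest of the 19 autosomes, against −0.71 on the others together. Outside the list of the other label, Dam-Lamin A averaged −0.92 ± 0.74, against −0.88 on the others together. The order of chromosome 11 and the others thus depended on the list for Dam-Lamin A. Dam-Lap2b averaged −1.09 ± 0.82 outside the Dam-Lamin A list, again the lowest of the 19 autosomes, against −0.83.

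With the levels of the other autosomes inside and outside the list of the same label, the listed share of chromosome 11 alone would give a mean of −0.15 with Dam-Lamin A and 0.06 with Dam-Lap2b. For Dam-Lamin A the lower share alone accounts arithmetically for a difference of −0.35 from the other autosomes, and the observed difference was −0.28. For Dam-Lap2b the share alone gives −0.22 and the levels alone −0.27 of an observed −0.51. This split used only the lists of the same label, although profiles and lists went together crosswise. It was not made with the lists of the other label, so the contrast between the profiles depends on the labels. The difference inside minus outside on chromosome 11 was 2.12 with Dam-Lamin A and 2.24 with Dam-Lap2b with the lists of the same label, and 2.16 and 2.34 with the lists of the other label.

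LADs were fewer per length on chromosome 11, with 6.90 per 10 Mb in the Dam-Lamin A list (8.37 on the other autosomes together) and 7.66 in the Dam-Lap2b list (9.17). Lower still were chromosome 17 in the Dam-Lamin A list (6.72) and, among others, chromosome 6 in the Dam-Lap2b list (7.58). Their median length was 221 kb (quartiles 137 and 490 kb) in the former, the shortest of the 19 autosomes, where the 18 others together had 330 kb. Chromosome 13 was close to it with 227 kb. In the Dam-Lap2b list the median was 266 kb (quartiles 150 and 533 kb) against 294 kb. This was only the 8th shortest of the 19 autosomes, and chromosome 19 was the shortest with 203 kb. Merging LADs across gaps under 25 kb raised the median of the Dam-Lamin A list to 335 kb, and chromosome 11 was then the second shortest. With domains called as runs of 10 kb bins above 0 its median was 220 kb, the fifth shortest. Short LADs of 100 to 200 kb were 41.5% of the Dam-Lamin A list on this chromosome and 30.2% elsewhere, and 38.5% against 34.6% in the Dam-Lap2b list. Chromosome 13 had more in the former list (43.8%) and chromosome 19 more in the latter (47.2%), so short LADs were not particular to chromosome 11. LADs of 1 Mb or longer numbered 12 and 11 and still held 57.4% and 47.4% of the listed length, near the 54.5% and 47.4% of the other autosomes.

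Longer LADs were higher. In the Dam-Lamin A list the profile of that label averaged 0.64 ± 0.53 (SD over 34 LADs) at 100 to 200 kb, 1.06 ± 0.41 (36 LADs) at 200 kb to 1 Mb and 1.52 ± 0.20 (12 LADs) at 1 Mb or longer. The Dam-Lap2b profile in its own list averaged 0.41 ± 0.53 (35 LADs), 0.74 ± 0.57 (45 LADs) and 1.54 ± 0.15 (11 LADs). The classes of short and long LADs were thus further apart than their SD. Long LADs of chromosome 11 were as high as those of the other autosomes, which averaged 1.40 ± 0.40 and 1.53 ± 0.25. Short LADs of the Dam-Lamin A list averaged 0.40 ± 0.54 elsewhere, less than on chromosome 11 but within 1 SD. Short and middle LADs of the Dam-Lap2b list averaged 0.69 ± 0.45 and 1.02 ± 0.49 elsewhere, more than on chromosome 11 and again within 1 SD.

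**Figure D3:**
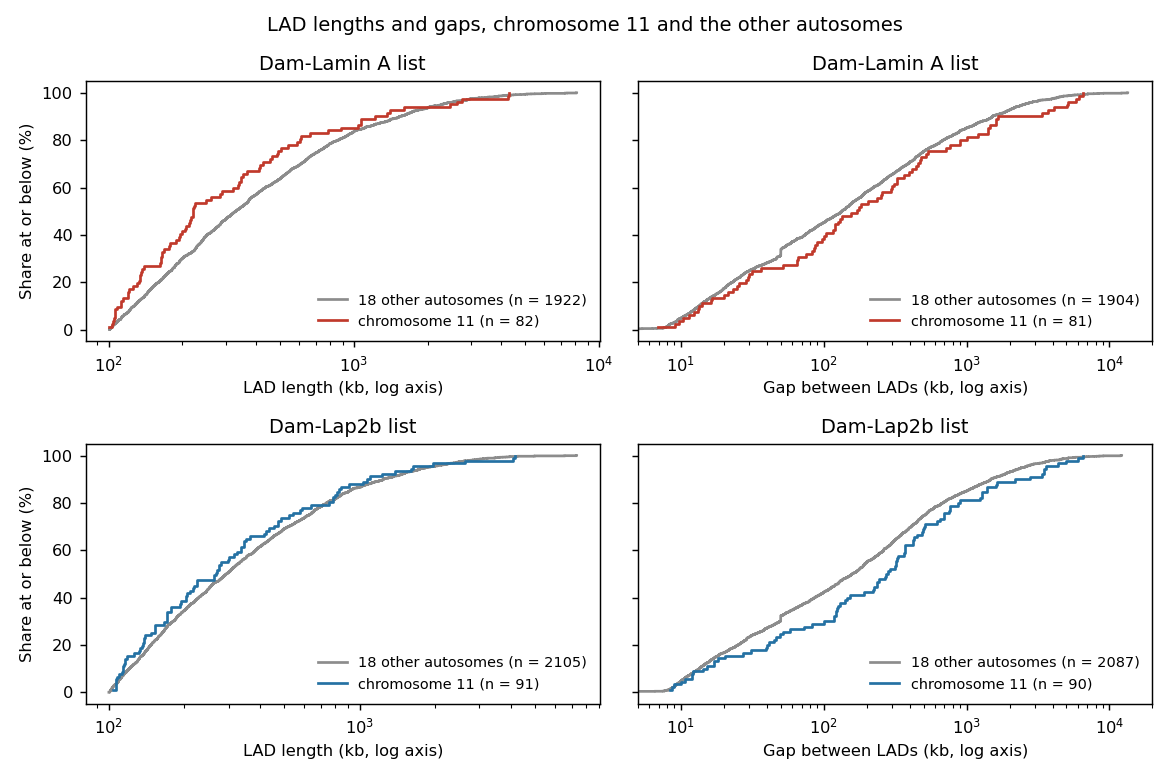
Cumulative share (vertical axis, %) of LADs by length (left) and of gaps by length (right), in kb on log axes, for the Dam-Lamin A list (upper row) and the Dam-Lap2b list (lower row). Coloured lines are chromosome 11 and grey lines the 18 other autosomes together. The coloured lines lie above grey for most LAD lengths and below grey for most gaps, so LADs were shorter (median 221 against 330 kb and 266 against 294 kb) and gaps longer (170 against 134 kb and 276 against 158 kb).

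The 5 longest LADs of the Dam-Lamin A list made up 37.5% of its length on chromosome 11, and each lay to at least 92.0% in the other list. The longest, 35860680 to 40170803 (4.31 Mb), averaged 1.37 ± 0.53 in the Dam-Lamin A profile and 1.67 ± 0.40 in the Dam-Lap2b profile. The next, 12139418 to 16396757 (4.26 Mb), averaged 1.38 ± 0.60 and 1.57 ± 0.42. In the third, 90940539 to 93712775 (2.77 Mb), the order was the opposite, with 1.79 ± 0.75 and 1.46 ± 0.50. This was the only one of the 5 on the distal side. The LADs 9037419 to 11683639 (2.65 Mb) and 23987758 to 26464837 (2.48 Mb) averaged 1.34 and 1.21 in the Dam-Lamin A profile and 1.46 and 1.43 in the Dam-Lap2b profile.

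The Dam-Lap2b list had its 5 longest LADs in the same blocks. They were 12225929 to 16394798 (4.17 Mb), 35875858 to 39954862 (4.08 Mb), 9034652 to 11673509 (2.64 Mb), 91760344 to 93711343 (1.95 Mb) and 24642288 to 26279147 (1.64 Mb). Of these, 4 lay wholly inside a LAD of the other list, and the one from 9034652 did so to 99.9%. Of the 82 LADs of the Dam-Lamin A list, 71 had at least 50% of their length in the other list, and of the 91 LADs of the Dam-Lap2b list also 71. LADs without any overlap numbered 10 and 19. These counts were not made for the other autosomes, so nothing is read from them. Overlap by length is set beside the other autosomes below.

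The median gap between LADs was 170 kb in the Dam-Lamin A list (81 gaps), 13th of the 19 autosomes from the shortest, against 134 kb on the others together. It was 276 kb in the Dam-Lap2b list (90 gaps), the longest of the 19 autosomes, against 158 kb. The median of the Dam-Lap2b gaps fell to 125 kb for domains called as runs of 10 kb bins above 0, only 12th from the shortest, and was 17th after merging across gaps under 25 kb. That of the Dam-Lamin A gaps was 297 kb after the same merging. Gaps of 1 Mb or longer numbered 15 and 17 and covered 42.1% and 42.6% of the chromosome. For the Dam-Lamin A list this was the highest share of the 19 autosomes (chromosome 17 followed with 39.9%), and for the other list 2 autosomes had more.

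The longest gap was almost the same in both lists, 74179368 to 80708219 (6.53 Mb) in the Dam-Lamin A list and 74182726 to 80703300 (6.52 Mb) in the Dam-Lap2b list. The profiles averaged −1.13 ± 0.57 (Dam-Lamin A) and −1.41 ± 0.61 (Dam-Lap2b) over the former. The gaps from 93712776 (5.82 Mb, −1.004 and −1.496) and from 51056330 (5.15 Mb, −0.831 and −0.998) also had counterparts in the other list, from 93711344 (6.02 Mb) and from 51318047. The gaps of the Dam-Lamin A list from 83083705 (6.08 Mb, −0.94 and −1.03) and from 99628219 (5.01 Mb, −0.75 and −1.34) were overlapped by 3 and 4 LADs of the other list, over 6.81% and 14.4% of their length. The 5 longest gaps of the Dam-Lap2b list also held 58650180 to 62999907 (4.35 Mb) and 67263025 to 70849365 (3.59 Mb). Both profiles were below 0 on average in each of these gaps.

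The lists parted at the distal end. The last LAD of the Dam-Lamin A list ended at 114409106, and the 7.43 Mb that followed held none. The Dam-Lap2b list had 3 LADs that began there. In 121619507 to 121785465 (166 kb) the Dam-Lamin A profile averaged 0.81 ± 0.51 and the Dam-Lap2b profile 0.30 ± 0.66. In 114800712 to 114907116 (106 kb) they averaged 0.08 ± 0.23 and −0.46 ± 0.28. The longest of the 3 is described next.

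Chromosome 11 was the only autosome with a larger share in the Dam-Lap2b list than in the Dam-Lamin A list, by 1.85 percentage points, while the other 18 differed by −7.81 to −0.04 points. Domains called with 1 rule from the profiles gave 34.2% with Dam-Lamin A and 34.9% with Dam-Lap2b on chromosome 11, a difference of 0.64 points. The lowest values of other autosomes were 34.3% and 40.4% by these calls, so for Dam-Lamin A chromosome 11 was then hardly apart. In these calls every other autosome had a difference of at least 2.47 points, so by this measure chromosome 11 went from the highest to the lowest of the 19. The lists shared 40.7 Mb of the chromosome, which is 92.6% of the Dam-Lamin A list and 88.1% of the Dam-Lap2b list. For the latter this was the lowest share of the 19 autosomes, which otherwise had 92.0 to 98.1%.

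Sequence in the Dam-Lap2b list alone came to 5.47 Mb and sequence in the Dam-Lamin A list alone to 3.27 Mb. These were 4.6% and 2.8% of the 10 kb bins of chromosome 11. On the other autosomes together they were 2.5% and 6.4%, in the opposite order. Of the 547 bins in the former, 365 (66.7%) lay on the distal side, and of the 330 bins in the latter, 112 (33.9%) did. The other autosomes together had 69.3% and 37.1%, a similar split by side. The longest stretch in the Dam-Lap2b list alone was a whole LAD, 118386116 to 118822004 (436 kb). There the profile of the same label averaged −1.01 ± 0.50 and the Dam-Lamin A profile 0.17 ± 0.44. In 103863822 to 104143164 (279 kb) they averaged −0.60 ± 0.61 and 0.32 ± 0.41, and in 33634836 to 33906134 (271 kb) 0.12 ± 0.57 and 0.32 ± 0.50. The Dam-Lamin A profile was thus the higher in all 3.

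The 3 longest stretches in the Dam-Lamin A list alone were shorter. They were 21905014 to 22100538 (196 kb), 62737561 to 62925388 (188 kb) and 26279148 to 26464837 (186 kb). The Dam-Lamin A profile averaged −0.36 ± 0.48, 0.23 ± 0.77 and 0.00 ± 0.70 in them. The Dam-Lap2b profile averaged 0.27 ± 0.29, 0.25 ± 0.37 and 0.45 ± 0.44. In the first and the third the profile of the other label was the higher, and in the second both were nearly equal.

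Recovered reads show what the ratios are made of. Over chromosome 11 the Dam-Lamin A library had a mean of 24.1 reads per fragment, above the median of 22.7 over the other autosomes. The Dam-Lap2b library had 22.0, below the median of 24.6. The reference had 33.0, the second highest of the 19 autosomes after chromosome 15 (36.1), where the median was 25.1. The low ratios of chromosome 11 thus went with many reads in the reference and, for Dam-Lamin A, not with few reads of the fusion. The reference divides both ratios and the chromosome was chosen for its low share, so this relation is partly built in. Its cause was not tested.

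Along the chromosome, low ratios went with more reference reads and also with fewer fusion reads. In the longest gap of the Dam-Lamin A list the median fragment had 8 Dam-Lamin A reads, 6 Dam-Lap2b reads and 19 reference reads. In the longest LAD it had 12, 13 and 4. The reference thus changed more between these 2 regions than the fusions did. Both regions were picked by their place in the list, so a difference in the ratios and in their divisor is partly built in. The LAD from 90940539 on the distal side stood out with 25 Dam-Lamin A reads and 18 Dam-Lap2b reads, beside 6 reference reads.

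**Figure D4:**
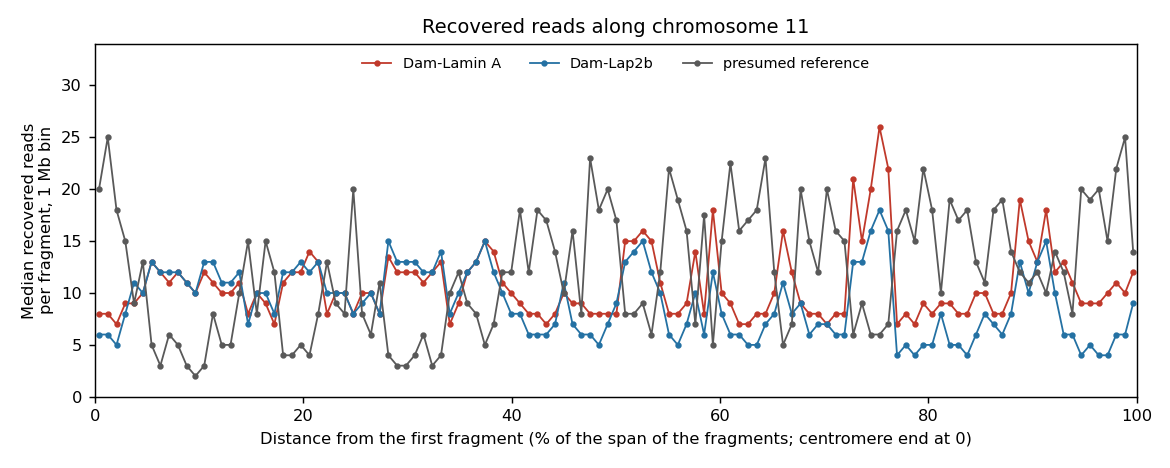
Median recovered reads per fragment (vertical axis) in the 119 bins of 1 Mb for the Dam-Lamin A library (red), the Dam-Lap2b library (blue) and the presumed reference (grey). The horizontal axis is the distance from the first fragment in % of the span. Grey peaks mark the low stretches of the ratios, and the highest red point, 26 reads in the bin from 92000001, lies in the LAD from 90940539.

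The difference between the profiles changed along the chromosome. Dam-Lap2b minus Dam-Lamin A averaged 0.07 ± 0.60 (SD over 5938 bins) on the proximal side and −0.37 ± 0.69 (5938 bins) on the distal side. Distal minus proximal was −0.44. The distal value was the lowest of the 19 autosomes, with −0.36 on chromosome 5 next to it, and the order of these 2 changed when bin medians were used or the ends of 3 Mb were left out. A decline towards the distal side was general, since distal minus proximal was below 0 on 17 of 19 autosomes, from −0.55 to 0.13 with the middle value at −0.29. On that measure chromosome 11 had the fifth lowest value. After centring, the proximal side of chromosome 11 was at −0.10 and the distal side at −0.54, so the sign of the proximal value depends on the scaling.

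By segments, chromosome 11 departed from the others in its middle. In segment 2 the difference was 0.21, near the mean of 0.19 ± 0.19 (SD over 18 chromosomes). In segments 5, 6 and 7 it was −0.20, −0.22 and −0.26, below each of the 18 other autosomes, whose lowest values were −0.05, −0.08 and −0.17. Since a constant shift of a profile moves all chromosomes alike, this order holds under centring too. In segment 10 it reached −0.58, where the others averaged −0.23 ± 0.25 and 2 of them were lower.

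**Figure D5:**
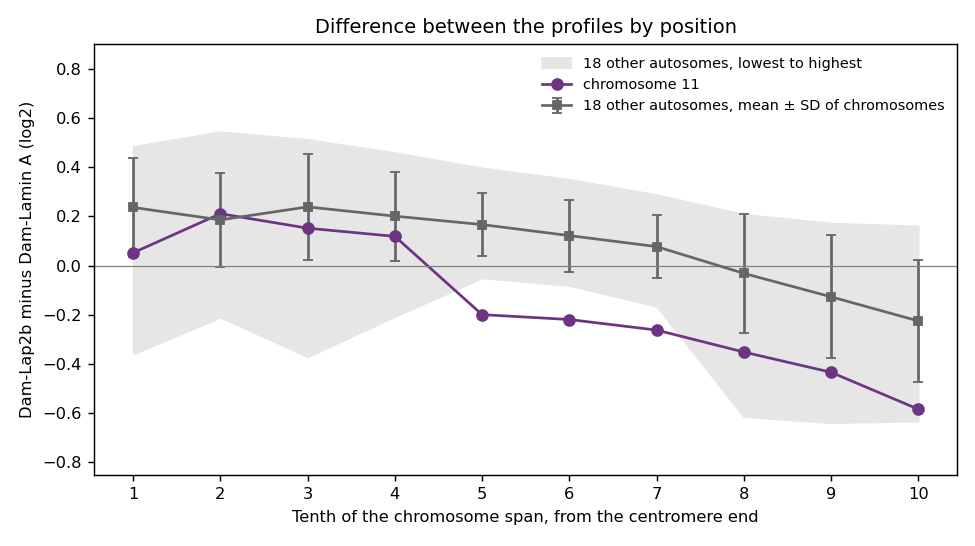
Dam-Lap2b minus Dam-Lamin A (vertical axis, log2) in 10 equal segments of the chromosome span counted from the centromere end (horizontal axis). Purple is chromosome 11, squares with bars are the mean ± SD of the 18 other autosomes, and the grey area spans their lowest and highest values. Chromosome 11 leaves the grey area from segment 5 to segment 7, at −0.20 to −0.26.

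The fall was seen inside and outside domains. In bins of both lists the difference was 0.12 on the proximal side (2732 bins) and −0.38 on the distal side (1339 bins). In bins of neither list it was 0.00 (2806 bins) and −0.35 (4122 bins). The profiles contributed differently: in bins of both lists Dam-Lamin A averaged 1.26 ± 0.58 proximally and 1.55 ± 0.66 distally, and Dam-Lap2b 1.38 ± 0.53 and 1.16 ± 0.55. In bins of neither list Dam-Lamin A was level (−0.95 ± 0.78 and −0.97 ± 0.67), and Dam-Lap2b went from −0.95 ± 0.76 to −1.32 ± 0.76. The median fragment in both lists had 12 Dam-Lamin A reads proximally and 20 distally, 12 and 14 Dam-Lap2b reads, and 4 and 6 reference reads. In neither list the medians were 8 and 8, 8 and 6, and 16 and 18.

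At the level of 10 kb bins, 27.5% of chromosome 11 had Dam-Lap2b lower than Dam-Lamin A by more than 0.5, against 15.5% of all bins of the genome. It was the highest share of the 19 autosomes, with 26.3% on chromosome 5 next. On the proximal side the share was 14.95% and on the distal side 40.0%. Of the 119 bins of 1 Mb, Dam-Lap2b was the lower in 77 (64.7%, genome 39.3%), and in 105 after centring (88.2%, genome 64.9%). The median fragment was 261 bp long on the proximal and 272 bp on the distal side, and its part in the difference was not tested.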

How the data were processed

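DamID of wild type C57BL/6 mouse embryonic fibroblasts was analysed from 2 fusions, 1 sample each. Column 4 of each profile held log2 values per fragment as deposited. The LAD lists as deposited held start and end only. Bowtie and the mm9 build are named in the submitters' processing notes. Counting, normalization and the domain caller are not given in the sources used here.

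Fragments were assigned to bins by their middle and averaged (10 kb bins with at least 5 fragments, 1 Mb bins with at least 500). A bin was in a LAD when its middle was. Coordinates are mm9, counted from 1. Spans run from the first to the last fragment. Domains were also called with 1 rule, as runs of bins above 0 of at least 100 kb. Reads were recovered as the smallest whole numbers with 1 common denominator up to 5000, found for 99.9972% of fragments. They are lower bounds, and no count test was run. Scripts were tested on simulated data (Python 3.11.15, numpy 2.4.6, pandas 2.3.3, scipy 1.17.1).

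Regions were named by rule: the 5 longest LADs and gaps of each list, the 3 longest stretches in 1 list alone, and the 5 highest and lowest 1 Mb bins. Gene lists were used only for their order in RefSeq, because the gene table is of another build. Members, lists and rules were chosen with earlier results of these data known. The sequence of the regions was not analysed here. With 1 sample per group no test was possible.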

Additional observations from a re-analysis of the deposited data

Results flagged for a closer look

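The profiles moved oppositely where a single list had a LAD. On chromosome 11, the mean of 330 bins held only by the Dam-Lamin A list, less the mean of 547 held only by the Dam-Lap2b list, was −0.34 in the Dam-Lamin A profile and 0.53 in the Dam-Lap2b profile. Both signs are opposite to those of a list that follows the profile of its label. With 1 sample each, this difference was not tested. All other autosomes had a value below 0 in the Dam-Lamin A profile, and all but chromosome 3 (−0.35) had one above 0 in the Dam-Lap2b profile.

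Domains on the distal and the proximal side also differed in opposite directions. In bins of both lists, the distal side minus the proximal side of chromosome 11 was 0.29 in the Dam-Lamin A profile and −0.22 in the Dam-Lap2b profile, and this was not tested either. Dam-Lamin A was higher on the distal side on 19 of 19 autosomes (0.10 to 0.55). Dam-Lap2b was lower there on 9 of 19, and chromosome 11 had the lowest value.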

How the results depend on the processing

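Across 18 results, 86 alternatives were run. Of those on means and differences, 0 changed a direction. Inside minus outside LADs is above 0 by what a LAD is, so its sign could hardly change. The proximal difference between the profiles, 0.07 before and −0.10 after centring, was not among the 18 results. Shares, counts, LAD lengths and gaps have no sign that could change. Ranks among the autosomes were not part of this check. A value counted as moved when it left the 95% Clopper-Pearson interval over bins (shares), left 1.5 times the count, or moved by over 1 SD of the other 18 autosomes. This was so for 17. In the order Dam-Lamin A and Dam-Lap2b, domains called with 1 rule gave listed shares of 34.2% and 34.9%, and leaving out the ends of 3 Mb gave 39.0% and 40.8%. Bins above 0 were 46.4% and 43.8% with bin medians, 39.8% and 36.0% after centring, and 45.5% and 44.2% without the ends. Centring gave means of −0.30 and −0.63. Merging across gaps under 25 kb gave a median LAD of 335 kb for Dam-Lamin A and median gaps of 297 and 347 kb. Domains called with 1 rule gave a median LAD of 200 kb and a median gap of 125 kb for Dam-Lap2b. Chromosome 11 kept the lowest share of bins above 0 for Dam-Lap2b under all settings. For Dam-Lamin A it was the second lowest, after chromosome 19, with centring and with fragments of 200 to 1000 bp. Summed reads and the proximal and distal sides were chosen after the data had been seen. No paired analysis was possible because each group had 1 sample. A fragment with a median of about 10 reads is imprecise. The intervals treat bins as independent draws, although neighbouring bins share LADs, so they are too narrow and serve only as a yardstick. They cover neither the counting of reads nor variation between samples.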

Other observations

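The bin of the genome in which Dam-Lap2b lay furthest below Dam-Lamin A was on chromosome 11, a region chosen after its value was seen. It was 69750001 to 69760000, with −5.31 in the Dam-Lap2b profile and −0.72 in the Dam-Lamin A profile over 12 fragments. The difference of −4.59 was the lowest of 255936 bins, and −4.37 on chromosome 4 was next. Dam-Lap2b was lower in all 12 fragments. In 3 of them it had 0 recovered reads, so their log2 values are set by the added read and are only bounds, and the bin mean rests in part on them. Recovered reads summed to 2574 (Dam-Lamin A), 59 (Dam-Lap2b) and 4957 (reference). The bin mean gives each fragment the same weight, and the reference reads of the 12 fragments ran from 2 to 2418. One fragment of 830 bp, 69754068 to 69754897, had 1371, 23 and 2418 reads. The bin before it had a difference of −0.10 and the bin after it −1.60. Among the 100 bins with the lowest difference in the genome, 20 were on chromosome 11, which holds 4.64% of all bins.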
